A study of Homo sapiens with 12 samples.

Results

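Extracellular matrix is the network of collagens, laminins and glycoproteins that cells secrete around themselves, and the 50 genes described here encode its structural proteins, the proteases that cut it, the inhibitors of those proteases and the enzymes that modify collagen. They were taken as a list of symbols, without a threshold on any measured value, and all 50 were found among the 63241 genes counted. The list was chosen with earlier results of these data known. Its counts and medians are therefore a description when set beside those of all genes. The data are 12 libraries of poly-A RNA from the established prostate carcinoma cell line MDA-PCa-2b. The 4 groups of 3 libraries each are called by their labels: NT, KD1 and KD2 (both labelled as knockdowns of the pyrimidine synthesis enzyme DHODH) and KDR (labelled as the rescue of the second knockdown). The construct behind each label, whether a group is 1 clone or a pool, and whether the libraries of a group are separate cultures are not stated in the labels, so the spread behind each p-value is that between libraries and may be technical. All groups share a medium with 20% fetal bovine serum, and the growth protocol names a fibronectin coat on the plastic for MDA-PCa-2a, a sister line that the cell line labels do not name.

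The basement membrane, the sheet under every epithelium, is built on a network of laminin and a network of type IV collagen, which perlecan (HSPG2), agrin (AGRN) and nidogens link to each other. Laminins are secreted as trimers of an alpha, a beta and a gamma chain, and type IV collagen as trimers of its own chains. Interstitial matrix holds fibrillar collagens and is made mostly by fibroblasts rather than by carcinoma cells. Matrix metalloproteinases (MMPs) and ADAMTS enzymes cleave these proteins, and tissue inhibitors of metalloproteinases (TIMPs) block the MMPs.

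Levels are CPM, counts scaled to a common library total with the trimmed mean of M values (TMM), given for libraries 1, 2 and 3 of a group or as mean ± SD (n = 3). Fold changes are edgeR's values on the log2 scale, which are drawn slightly toward 0. The 95% intervals were computed from the F statistic of its quasi-likelihood test, around the estimate without that shrinkage. On low counts the printed value is therefore not the centre of its interval. The threshold for a call was a Benjamini-Hochberg (BH) adjusted p below 0.05 over the 19373 genes tested. Libraries held 23786288 to 38240369 counts. RNA of DHODH, the gene that the labels target, stood at 8.95 to 13.4 CPM (NT), 9.63 to 11.0 (KD1), 11.4 to 14.9 (KD2) and 17.5 to 19.2 (KDR), and was not called lower under either knockdown label, so each direction below belongs to the libraries as labelled. Library 2 of NT stood apart from its group, with a biological coefficient of variation of 15.7% in NT that was 8.56% without it, against 5.53% to 7.17% in the other groups. All 10 luminal prostate markers were expressed, and their summed level was lower in KD2 (10762 to 11075 CPM) than in NT (16085 to 19131), KD1 (16169 to 16557) and KDR (15940 to 16348). The part of this shift in the results below was not tested, and in bulk RNA fewer cells of a type and less RNA per cell cannot be told apart. The 11 markers of fibroblasts and smooth muscle summed to 11.4 to 17.4 CPM in NT, 12.6 to 13.4 in KD1, 11.6 to 13.3 in KD2 and 15.4 to 19.2 in KDR. Among them, TAGLN averaged over 1 CPM in every group and ACTA2 in NT and KD2 only, and POSTN was at 0 in all libraries. The 8 endothelial markers summed to 24.7 to 37.6 CPM over all libraries, with ESAM and EGFL7 over 1 CPM in every group and CDH5 and TEK at 0. The 8 blood and immune markers summed to 0.533 to 0.859 CPM in NT, 0.624 to 0.885 in KD1, 1.42 to 3.13 in KD2 and 1.28 to 1.43 in KDR. Among these, CD4 averaged over 1 CPM in KD2 and KDR, and CD3E, CD68 and LST1 were at 0.

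This carcinoma line expressed 40 of the 50 genes, taken as a mean of at least 1 CPM in at least 1 group, and 43 passed the filter on low counts. Per kilobase of exon, the highest levels in NT were those of the glycoprotein spondin 2 (SPON2, 173 CPM per kb), the serine protease inhibitor SPINT1 (93.4), fibronectin (FN1, 86.0), the laminin chain LAMC1 (59.9) and agrin (52.5). For the 10 genes under that level, the counts summed over all 12 libraries were 3 for COL4A1, 11 for the nidogen NID1, 133 for NID2, 86 for SPARC, 11 for the collagenase MMP13, 116 for the membrane-bound MMP14, 1 for MMP16, 16 for TIMP3, 7 for the urokinase gene PLAU and 97 for the tissue plasminogen activator gene PLAT. PLAU and NID2 share 31.0% and 30.7% of their exon bases with a gene on the other strand, and reads there were not counted. COL1A2, the usual partner chain of COL1A1 in ordinary type I collagen, had 24 counts in all, and the gelatinase genes MMP2 and MMP9, which are not among the 50, had 2 and 9.

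The libraries labelled KD2 differed from NT in most of the genes tested: 16 were higher and 10 lower, and 17 were not called. Fibronectin, perlecan, laminin chains and the protease matrilysin (MMP7) were higher, whereas SPON2, the protease ADAMTS1 and the type IV chains COL4A5 and COL4A6 were lower. Of all 19373 genes, 17.8% were called higher and 18.2% lower, together 35.9%. The median log2 fold change was 0.04 over the 43 genes and -0.01 over all genes, and the median absolute value was 0.66 against 0.31. A log2 change of 1 or more in size was called for 11 of the 43, against 9.27% of all genes, and the libraries of both groups did not overlap for 27, against 42.5%. Without NT library 2, 16 were higher and 8 lower. In that refit 7582 of 20065 genes tested were called, against 6958 of 19373 with all libraries.

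In the libraries labelled KDR, compared with KD2, 9 genes were higher and 16 lower, and 18 were not called. The genes with the largest gains were SPON2, COL2A1, ADAMTS1, LAMA1 and COL4A6, and those with the largest losses MMP20 and MMP7. Called higher were 15.3% of all genes and called lower 17.1%, together 32.4%. The median log2 fold change was -0.24 over the 43 genes and 0.02 over all genes, and the median absolute value 0.57 against 0.29. Changes of at least 1 were called for 13 genes, against 8.69% of all genes, and 33 had libraries that did not overlap, against 49.9%. Without NT library 2, which enters through the shared estimate of spread, 9 were higher and 21 lower. Calls over all genes rose as well, to 7876 of 20065 from 6285 of 19373.

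Against NT, 12 genes were higher and 10 lower in KDR, the libraries labelled as the rescue, and 21 were not called. COL2A1, MMP20, MMP7 and ADAMTS1 stood above NT, and FBN1, LAMB3, COL12A1 and P4HA2 below it. Of all genes, 13% were called higher and 14.5% lower, together 27.5%, with a median absolute log2 fold change of 0.56 over the 43 genes and 0.27 over all genes. Changes of at least 1 were called for 11, against 6.45%, and 26 did not overlap, against 38.2%. Without NT library 2 the counts were 15 and 9, beside 6180 of 20065 genes called, against 5337 of 19373 with all libraries. These 3 comparisons share libraries, so their values are set side by side below and are not independent of each other.

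**Figure D1:**
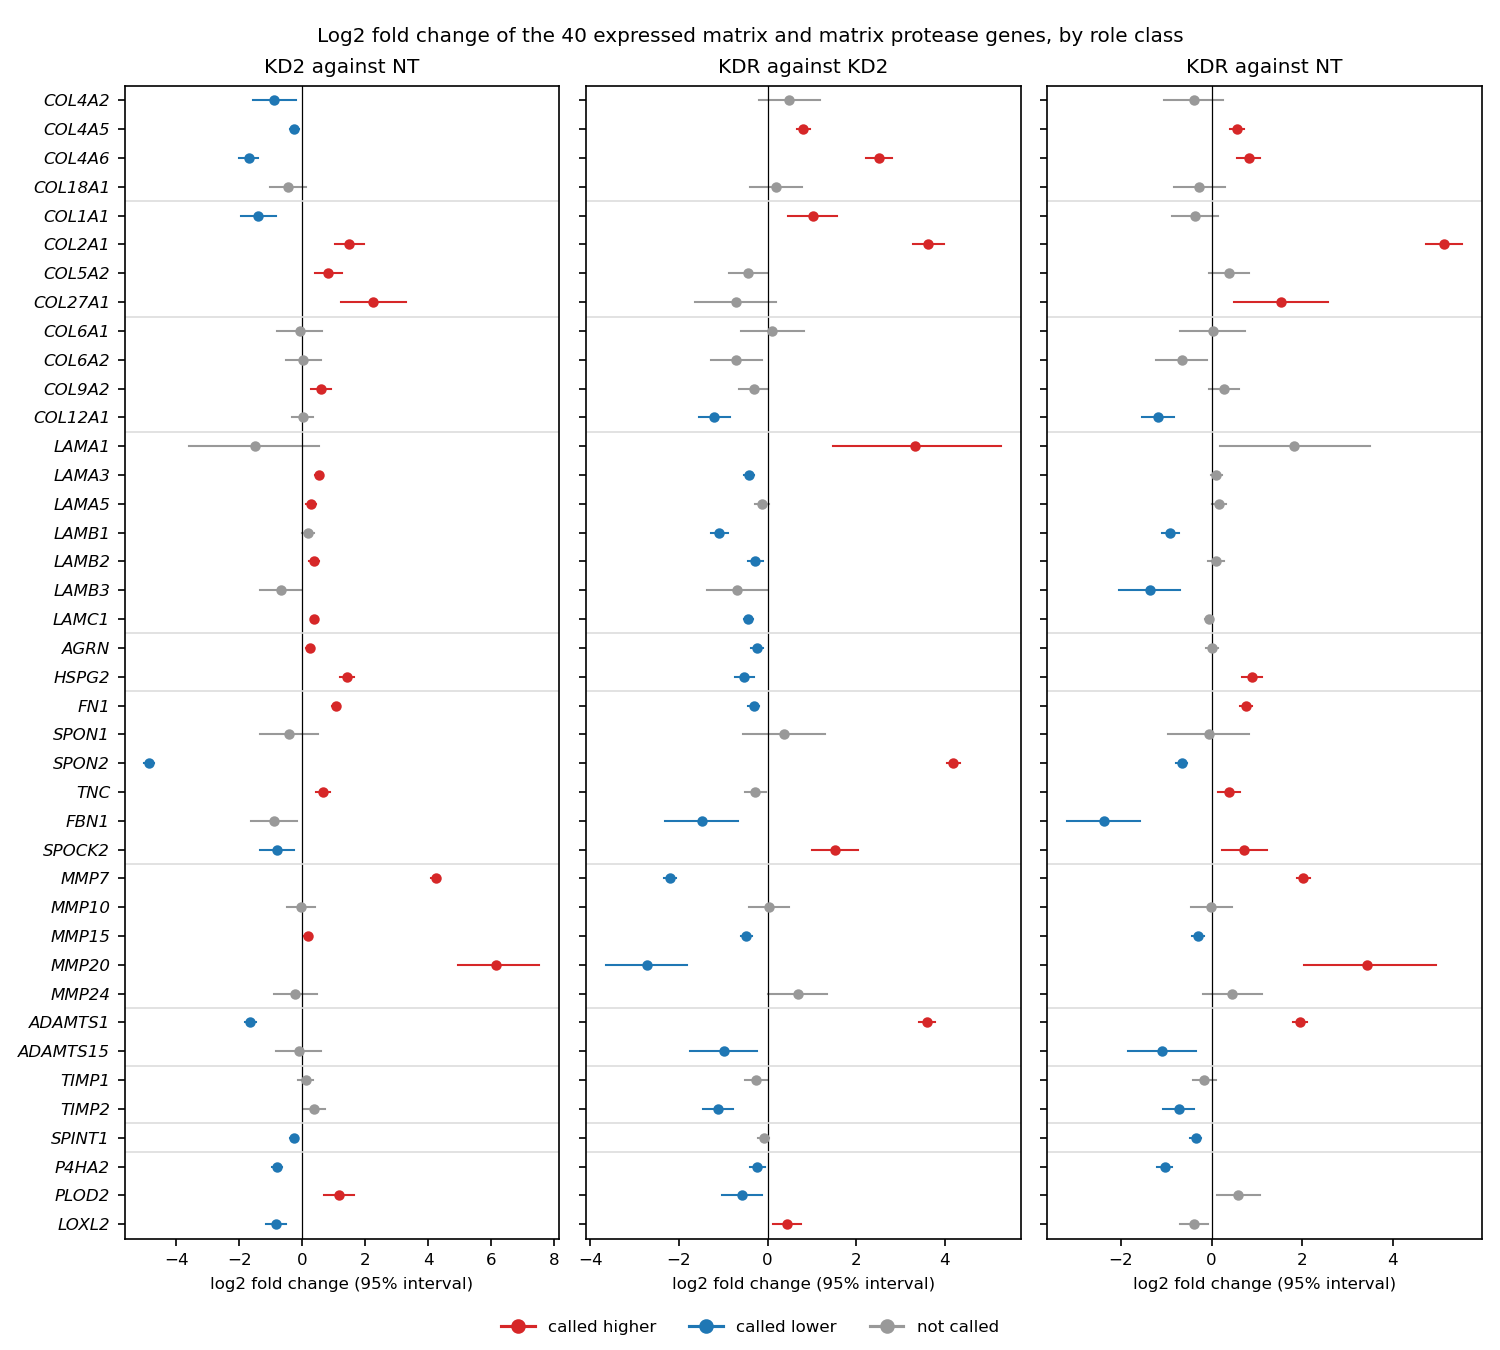
Log2 fold change of the 40 expressed genes in 3 comparisons, ordered by role class and separated by grey lines; points are edgeR estimates, bars their 95% intervals, and colour gives the call. SPON2 lay at -4.85 in KD2 against NT and at 4.19 in KDR against KD2, while MMP7 lay at 4.24 and -2.21 and COL2A1 stood above 0 in all 3 panels.

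Of the 4 basement membrane collagens tested, 3 were lower in KD2 than in NT, beside 18.2% of all genes. In KDR 2 were higher than in either KD2 or NT, beside 15.3% and 13% of all genes. Type IV collagen was represented mainly by COL4A5 and COL4A6, which encode chains of the trimer found in basement membranes of smooth muscle and some epithelia. COL4A5 (ENSG00000188153, GRCh38 chromosome X, 108439838 to 108697545, plus strand) measured 158, 135 and 172 CPM in NT, 158, 161 and 166 in KD1, 137, 132 and 121 in KD2 and 222, 234 and 228 in KDR. Its KDR libraries lay above all others, while KD2 overlapped NT. The log2 fold change was -0.25 (95% interval -0.40 to -0.10, edgeR BH-adjusted p = 0.0073) for KD2 against NT and 0.81 (95% interval 0.66 to 0.96, edgeR BH-adjusted p = 5.6e-09) for KDR against KD2. COL4A6 (ENSG00000197565, chromosome X, 108155607 to 108439497, minus strand) measured 16.9, 16.1 and 16.4 CPM in NT, 15.8, 19.1 and 12.4 in KD1, 4.34, 5.21 and 5.76 in KD2 and 30, 28.8 and 28.5 in KDR. NT and KD1 shared a range, KD2 lay below it and KDR above it. The fall in KD2 was -1.70 (95% interval -1.99 to -1.41, edgeR BH-adjusted p = 1.5e-09) and the gain of KDR over KD2 2.52 (95% interval 2.23 to 2.81, edgeR BH-adjusted p = 1.6e-12). Against NT, KDR was higher by 0.56 for COL4A5 and by 0.82 for COL4A6 (edgeR BH-adjusted p = 2.3e-06 and 2.5e-05). Per kilobase, the COL4A6 level was 12.2% to 15.2% of the COL4A5 level in NT, 9.58% to 15.2% in KD1, 4.07% to 6.07% in KD2 and 15.7% to 17.3% in KDR, so the smaller partner changed more. The call of COL4A5 in KD2 ended without NT library 3 (-0.17) or KD2 library 3 (-0.20), with BH-adjusted p, by edgeR and the other tools, from 3.2e-07 to 0.061 over 19 alternatives.

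Type IV collagen genes lie in head-to-head pairs, transcribed away from each other from a common stretch of DNA, and the stretches are shown because COL4A5 and COL4A6 were both lower in KD2 and higher in KDR and COL4A1 and COL4A2 were unequal. The nearest RefSeq starts of COL4A5 and COL4A6 are 379 bases apart, and those of COL4A1 and COL4A2 126 bases. Printed below are the 121 bases that lie within 250 bases of both starts at chrX:108439588-108439708 and 100 of the bases between the other pair, free of exons, at chr13:110307158-110307257 (GRCh38.p14, RefSeq, plus strand). RefSeq also lists a start of COL4A6 farther from COL4A5, whose window does not reach this stretch. Capitals mark a GC box (GGGCGG, either strand).
COL4A6-COL4A5: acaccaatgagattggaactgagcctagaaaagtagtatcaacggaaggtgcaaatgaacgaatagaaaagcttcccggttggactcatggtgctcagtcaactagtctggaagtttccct
COL4A1-COL4A2: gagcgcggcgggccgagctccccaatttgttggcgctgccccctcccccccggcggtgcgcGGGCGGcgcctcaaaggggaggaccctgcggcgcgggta
Neither an AP-1 site (TGANTCA) nor a TATA box (TATAAA) was in these stretches, and the GC box was found between COL4A1 and COL4A2. A GC box was present in 42.6% of 35116 RefSeq windows of 250 bases before a start and in 32 of the 45 windows (71.1%) of the 36 members with an entry. COL4A2 held 550 counts against 3 for COL4A1. The counted COL4A2 gene begins at 110305812, before the printed stretch and within the span of COL4A1 (110148963 to 110307157). Counts per gene do not tell which start was used, so those of COL4A2 cannot be tied to the RefSeq start beside COL4A1. COL4A2 stood at 1.95 ± 0.877 CPM (NT), 1.59 ± 0.160 (KD1), 1.06 ± 0.132 (KD2) and 1.48 ± 0.241 (KDR), and was called lower in KD2, at -0.89 (95% interval -1.57 to -0.20, edgeR BH-adjusted p = 0.039). That call ended without NT library 2 (-0.46), without any 1 of the KD2 libraries and in 5 other refits, with BH-adjusted p, by edgeR and the other tools, from 0.011 to 0.34 over 19 alternatives. COL18A1, the basement membrane collagen from which endostatin is cut, averaged 2.21, 2.09, 1.6 and 1.83 CPM in NT, KD1, KD2 and KDR and was called in no comparison, with 18.5% of its exon bases shared with SLC19A1.

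Fibrillar collagens were low in this epithelial line, but each of the 4 was called in KD2 against NT. Of these, 3 were higher and 1 lower, beside 17.8% and 18.2% of all genes. COL2A1, the collagen of cartilage (ENSG00000139219, GRCh38 chromosome 12, 47972967 to 48004554, minus strand), measured 0.745, 1.85 and 2.06 CPM in NT, 1.91, 1.54 and 2.00 in KD1, 3.63, 4.76 and 4.59 in KD2 and 52.5, 55.0 and 52.6 in KDR. The KDR libraries stood far above the rest, and KD2 lay between them and the overlapping NT and KD1 libraries. COL2A1 rose by 1.49 (95% interval 1.04 to 1.95, edgeR BH-adjusted p = 8.3e-06) in KD2 over NT and by 3.63 (95% interval 3.28 to 3.99, edgeR BH-adjusted p = 9e-14) in KDR over KD2, which put KDR 34.9-fold above NT. COL2A1 thus lay farther from NT in the libraries labelled as the rescue than in KD2. COL1A1, a chain of type I collagen, measured 4.07, 4.66 and 3.09 CPM in NT, 3.08, 3.53 and 4.55 in KD1, 1.73, 1.46 and 1.29 in KD2 and 2.34, 4.22 and 2.60 in KDR. All KD2 libraries lay below all others, and KDR overlapped NT. Its log2 fold change was -1.39 (95% interval -1.94 to -0.84, edgeR BH-adjusted p = 2e-04) in KD2 against NT and 1.02 (95% interval 0.47 to 1.57, edgeR BH-adjusted p = 0.0046) in KDR against KD2. The latter call ended without KDR library 2 (0.71, with BH-adjusted p, by edgeR and the other tools, from 0.0014 to 0.06 over 19 alternatives).

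COL5A2, a chain of the type V collagen that helps to set fibril diameter, measured 5.12, 3.07 and 4.5 CPM in NT, 4.85, 3.12 and 4.92 in KD1, 9.31, 6.35 and 6.85 in KD2 and 5.82, 4.90 and 5.92 in KDR, with KD2 above the other groups. It rose in KD2 by 0.83 (95% interval 0.40 to 1.27, edgeR BH-adjusted p = 0.0031), and KDR was called different neither from KD2 (-0.44) nor from NT (0.39). COL27A1, a fibrillar collagen of cartilage, had 24 counts in NT and 115 in KD2, a scaled ratio of 4.83 with a counting interval of 3.09 to 7.84. Both ends of a fragment could be counted, so counts are not independent fragments and such intervals are too narrow. Its levels were 0.311, 0.297 and 0.191 CPM in NT, 0.283, 0.457 and 0.390 in KD1, 1.31, 1.67 and 0.877 in KD2 and 1.05, 0.548 and 0.731 in KDR, so NT and KD1 lay below the others. Its rise was 2.24 (95% interval 1.24 to 3.28, edgeR BH-adjusted p = 0.00083) in KD2 and 1.52 (95% interval 0.50 to 2.58, edgeR BH-adjusted p = 0.024) in KDR, both against NT. The call in KDR ended without NT library 3 (1.34), without KDR library 1 (1.24) and in 2 other refits (BH-adjusted p, by edgeR and the other tools, from 0.013 to 0.13 over 19 alternatives).

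Among the other collagens, 1 of 4 was called in each of the comparisons of KD2 with NT, KDR with KD2 and KDR with NT. The shares of all genes called there were 35.9%, 32.4% and 27.5%. COL12A1, which coats collagen fibrils, measured 8.82, 9.52 and 6.90 CPM in NT, 10.8, 7.69 and 8.88 in KD1, 8.68, 7.53 and 9.48 in KD2 and 3.39, 3.61 and 4.21 in KDR. Only the KDR libraries stood apart, below all others, with -1.20 (95% interval -1.55 to -0.85, edgeR BH-adjusted p = 7e-06) against KD2 and -1.18 (95% interval -1.53 to -0.83, edgeR BH-adjusted p = 1.2e-05) against NT. COL9A2, a chain of a cartilage collagen that sits on fibrils, measured 7.21, 5.29 and 5.18 CPM in NT, 5.10, 4.95 and 6.45 in KD1, 8.57, 8.50 and 9.64 in KD2 and 7.40, 7.06 and 6.95 in KDR, and was called higher in KD2 against NT (0.59, edgeR BH-adjusted p = 0.0049). The type VI chains COL6A1 and COL6A2 had group means of 1.02 to 1.70 and 1.6 to 2.58 CPM and were called in none of these comparisons.

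Of the 7 laminin chains, 4 were higher in KD2 than in NT and 4 lower in KDR than in KD2, mostly by small steps. The shares of all genes called in these directions were 17.8% and 17.1%. The gamma chain LAMC1, shared by many laminins of basement membranes (ENSG00000135862, GRCh38 chromosome 1, 183023420 to 183145592, plus strand), measured 513, 503 and 501 CPM in NT, 478, 504 and 496 in KD1, 655, 654 and 653 in KD2 and 487, 499 and 469 in KDR. The KD2 libraries were nearly equal and stood above all the rest. LAMC1 rose by 0.37 (95% interval 0.28 to 0.46, edgeR BH-adjusted p = 6.8e-07) in KD2 over NT and its change from KD2 to KDR was -0.43 (95% interval -0.53 to -0.34, edgeR BH-adjusted p = 9.5e-08). The alpha chain LAMA3 rose from 280.3 ± 10.7 CPM (NT) to 403 ± 14.2 (KD2) (0.52), LAMA5 from 207 ± 32.0 to 253 ± 5.92 (0.29) and the beta chain LAMB2 from 238 ± 43.3 to 309 ± 10.9 (0.38), with edgeR BH-adjusted p of 1.6e-07, 0.0041 and 0.00073. LAMC1, LAMA3 and LAMB2 were lower in KDR than in KD2 and were not called against NT. The call of LAMB2 in KDR against KD2 (-0.28) ended without KD2 library 2 (-0.25) or KDR library 3 (-0.25), with BH-adjusted p, by edgeR and the other tools, from 4.8e-08 to 0.051 over 19 alternatives.

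In KDR against NT, 0 of the 7 laminin chains were higher and 2 lower, beside 13% and 14.5% of all genes. Those lower were the less abundant beta chains, LAMB1 and LAMB3. LAMB1, the beta chain of laminins in early and vascular basement membranes, measured 26.6, 27.7 and 28.7 CPM in NT, 29.2, 25.6 and 24.7 in KD1, 30.6, 29.5 and 33.6 in KD2 and 14.7, 14.9 and 14.6 in KDR. The KDR libraries lay close together and below every other library, at -1.09 (95% interval -1.28 to -0.89, edgeR BH-adjusted p = 3e-09) against KD2 and -0.91 (95% interval -1.10 to -0.72, edgeR BH-adjusted p = 8.4e-08) against NT. Per kilobase, LAMB1 was 3.56% to 4.83% of LAMB2 in NT and 2.09% to 2.20% in KDR. LAMB3, the beta chain of the laminin that anchors epithelia through hemidesmosomes, measured 2.55, 3.07 and 3.05 CPM in NT, 2.41, 2.04 and 2.81 in KD1, 1.84, 1.67 and 1.88 in KD2 and 0.468, 1.35 and 1.57 in KDR. Its KDR libraries lay below all others, and the log2 fold change against NT was -1.37 (95% interval -2.04 to -0.70, edgeR BH-adjusted p = 0.0025). LAMA1, an alpha chain of early embryonic basement membranes, had 26 counts (NT), 35 (KD1), 9 (KD2) and 97 (KDR). All 9 counts in KD2 came from library 2, with levels of 0.280, 0.132 and 0.495 CPM in NT, 0.672, 0.499 and 0.104 in KD1, 0, 0.312 and 0 in KD2 and 0.673, 1.1 and 1.46 in KDR. The scaled ratio of KDR to KD2 was 10.2 with a counting interval of 5.18 to 23.1, and the fitted value 3.32 (95% interval 1.48 to 5.27, edgeR BH-adjusted p = 0.0062). That value was 2.68 without KD2 library 1 and 8.02 without KD2 library 2.

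**Figure D2:**
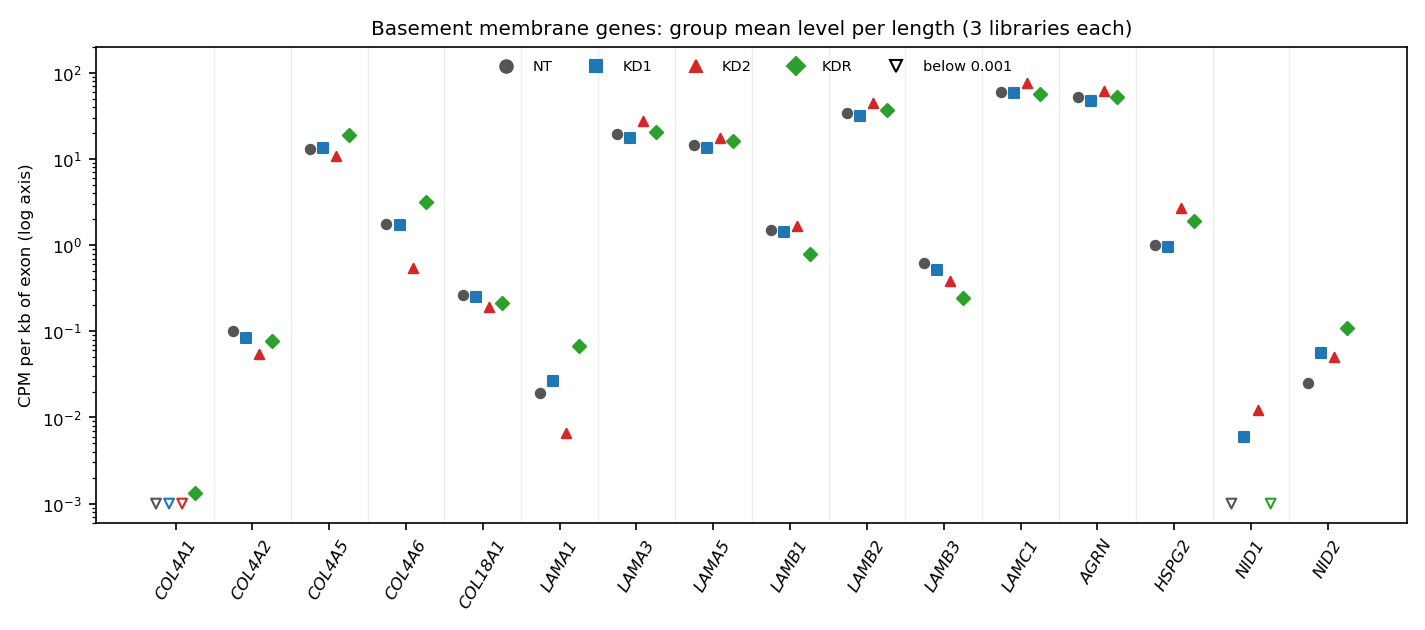
Group mean level of 16 basement membrane genes in CPM per kb of exon on a log axis, with 3 libraries behind each symbol and open triangles for means below 0.001. LAMC1 and AGRN stood highest in every group, the red KD2 symbols of the abundant laminins and HSPG2 lay above NT, and those of COL4A5 and COL4A6 below it.

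The proteoglycans that tie laminin to type IV collagen were both higher in KD2 than in NT, beside 17.8% of all genes. Perlecan (HSPG2, ENSG00000142798, GRCh38 chromosome 1, 21822244 to 21937310, minus strand) measured 18, 21.8 and 15.4 CPM in NT, 15.5, 17.4 and 19.6 in KD1, 46.0, 51.1 and 50.4 in KD2 and 35.8, 32.9 and 33.9 in KDR. NT and KD1 overlapped, KDR lay above them and KD2 above KDR. The rise in KD2 was 1.41 (95% interval 1.19 to 1.64, edgeR BH-adjusted p = 4.8e-10), 2.66-fold, and KDR differed from KD2 by -0.52 (95% interval -0.74 to -0.30, edgeR BH-adjusted p = 0.00045). In KDR, HSPG2 still exceeded NT by 0.89 (edgeR BH-adjusted p = 1.4e-06), and 11.7% of its exon bases overlap LDLRAD2. Agrin, which also clusters receptors at synapses, measured 504, 641 and 551 CPM in NT, 528, 516 and 489 in KD1, 646, 667 and 699 in KD2 and 575, 574 and 548 in KDR. Its rise in KD2 was smaller, 0.25 (95% interval 0.11 to 0.38, edgeR BH-adjusted p = 0.0042), and KDR was not called against NT (0.00, 95% interval -0.13 to 0.14). The nidogen NID2, which lay under the expression threshold, was called higher in KDR against NT at 2.08 (95% interval 0.65 to 3.56, edgeR BH-adjusted p = 0.028), on 133 counts in all. That call ended without NT library 1 or 3 or KDR library 2 or 3, and the value was 2.92 without NT library 2 (BH-adjusted p, by edgeR and the other tools, from 0.01 to 0.13 over 18 alternatives).

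Fibronectin, the adhesive glycoprotein that integrins bind, was the member with the most counts. FN1 (ENSG00000115414, GRCh38 chromosome 2, 215360440 to 215436073, minus strand) measured 1439, 1699.8 and 1306 CPM in NT, 1413, 1458 and 1407 in KD1, 3005, 3212 and 3116 in KD2 and 2558, 2514 and 2444 in KDR. The KD2 libraries lay above the KDR libraries and these above NT and KD1, which overlapped. FN1 rose 2.10-fold in KD2 over NT, a log2 fold change of 1.07 (95% interval 0.94 to 1.2, edgeR BH-adjusted p = 3.8e-12). Its change from KD2 to KDR was -0.31 (95% interval -0.44 to -0.18, edgeR BH-adjusted p = 0.00038), which left KDR 1.69-fold above NT (edgeR BH-adjusted p = 2.8e-09). FN1 alone made up 26.0% to 29.5% of the summed CPM of the 50 genes in NT, 28.2% to 28.9% in KD1, 45.8% to 47.4% in KD2 and 40.8% to 41.3% in KDR. That sum ran from 4979 to 5756 CPM in NT, 4902 to 5051 in KD1, 6562 to 6783 in KD2 and 5965 to 6194 in KDR.

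SPON2, a secreted protein that binds integrins of immune cells, went the other way (ENSG00000159674, GRCh38 chromosome 4, 1166932 to 1208962, minus strand). It measured 953, 1099.8 and 1062 CPM in NT, 1009.6, 992 and 968 in KD1, 35.1, 32.8 and 40.1 in KD2 and 675, 667 and 627 in KDR. The KD2 libraries stood far below the rest, and KDR lay below NT and KD1 without overlap. SPON2 was 28.9-fold lower in KD2 than in NT, and KDR was 18.3-fold above KD2 and 1.58-fold below NT (edgeR BH-adjusted p = 1.1e-22, 7.3e-22 and 1.9e-08). Its relative SPON1 stayed between 0.798 and 1.08 CPM in group means and was called in no comparison.

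The other glycoproteins were expressed at lower levels. Tenascin C (TNC), a matrix protein of wounds and tumour stroma, rose from 10.3 ± 0.539 CPM (NT) to 16.3 ± 1.18 (KD2) at 0.66 (95% interval 0.42 to 0.89, edgeR BH-adjusted p = 6.5e-05), and stood at 13.4 ± 1.16 in KDR, 0.38 above NT. The KDR call ended without NT library 1 (0.34) or KDR library 1 (0.32), with BH-adjusted p, by edgeR and the other tools, from 0.0099 to 0.083 over 19 alternatives. FBN1, the scaffold of elastic microfibrils, measured 3.63, 3.57 and 1.56 CPM in NT, 2.23, 1.62 and 2.52 in KD1, 2.16, 1.25 and 1.29 in KD2 and 0.877, 0.419 and 0.366 in KDR. Its KDR libraries lay below every other library, at -2.37 (95% interval -3.19 to -1.57, edgeR BH-adjusted p = 6e-05) against NT and -1.48 (95% interval -2.32 to -0.66, edgeR BH-adjusted p = 0.0057) against KD2, while KD2 overlapped NT (-0.89, edgeR BH-adjusted p = 0.052). The call against KD2 ended without KD2 library 1 (-1.17), with BH-adjusted p, by edgeR and the other tools, from 0.00064 to 0.052 over 19 alternatives. SPOCK2, a proteoglycan of the testican family, measured 3.17, 3.77 and 2.51 CPM in NT, 4.81, 3.83 and 3.38 in KD1, 1.73, 1.18 and 2.59 in KD2 and 5.47, 5.74 and 4.39 in KDR. KD2 was low but reached into the NT range, and KDR lay above NT and KD2. SPOCK2 differed by -0.80 in KD2 and 0.72 in KDR against NT, and 1.52 (95% interval 1.00 to 2.04, edgeR BH-adjusted p = 5.3e-05) in KDR against KD2. The call in KD2 against NT (BH-adjusted p, by edgeR and the other tools, from 0.0032 to 0.12 over 19 alternatives) ended without NT library 2 (-0.65), KD2 library 1 (-0.76) or KD2 library 2 (-0.56) and in 1 other refit. The call in KDR against NT (BH-adjusted p, by edgeR and the other tools, from 0.0082 to 0.11) ended without NT library 1 (0.72), NT library 3 (0.58), KDR library 1 (0.68) or KDR library 2 (0.64).

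**Figure D3:**
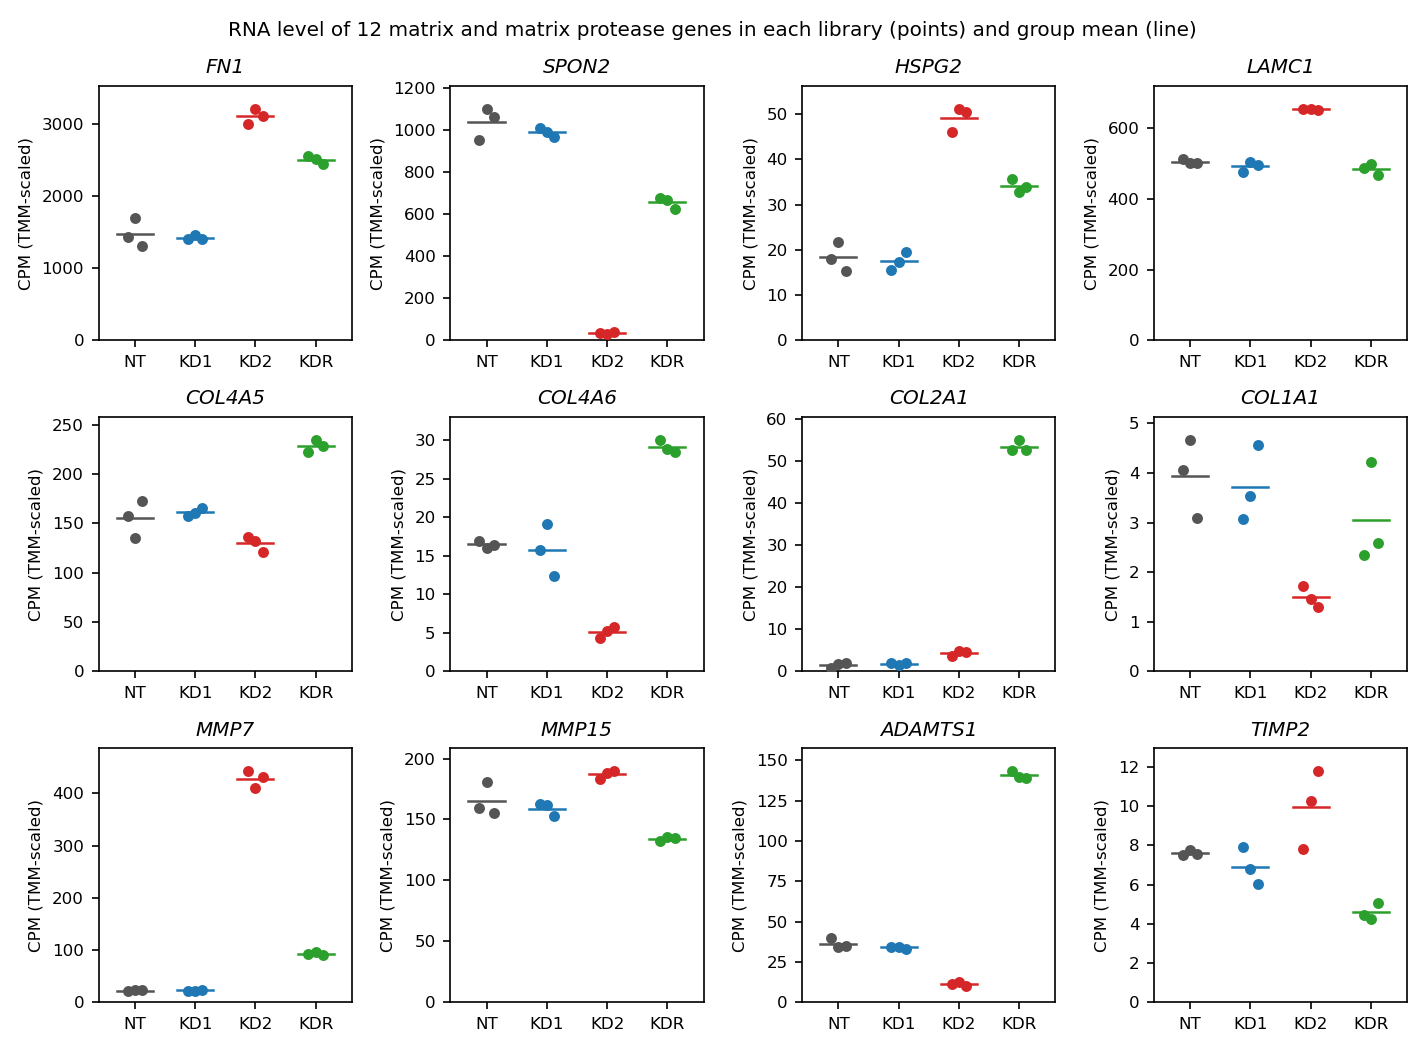
Level of 12 of the genes in every library (points) with the group mean (line), in CPM on linear axes that start at 0. FN1, HSPG2, LAMC1 and MMP7 were highest in KD2, SPON2, COL4A6, COL1A1 and ADAMTS1 were lowest there, and COL2A1 stood near 53 CPM in KDR against under 5 elsewhere.

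Of the 6 matrix metalloproteinases tested, 3 were higher and 0 lower in KD2 against NT, beside 17.8% and 18.2% of all genes. In KDR against KD2 0 were higher and 3 lower, beside 15.3% and 17.1%, and in KDR against NT 2 and 1, beside 13% and 14.5%. One of those called, MMP20, was near 0 in NT and KD1 and could pass the filter on low counts only through KD2 and KDR. The strongest changes were those of MMP7 and MMP20, neighbours in a cluster on chromosome 11. Matrilysin (MMP7, ENSG00000137673, GRCh38 chromosome 11, 102520508 to 102530750, minus strand) is the small MMP that epithelial cells themselves secrete, and it cleaves fibronectin, laminin and proteoglycans. It measured 20.9, 23.0 and 24.3 CPM in NT, 22.7, 21.8 and 24.2 in KD1, 442, 411 and 432 in KD2 and 91.8, 96.3 and 90.2 in KDR. The KD2 libraries stood above the KDR libraries, and both groups far above NT and KD1, which overlapped. MMP7 was 18.8-fold higher in KD2 than in NT, at 4.24 (95% interval 4.09 to 4.38, edgeR BH-adjusted p = 8.5e-22), and 4.62-fold lower in KDR than in KD2. It remained 4.08-fold above NT in KDR (edgeR BH-adjusted p = 6.3e-16). MMP20, the enamel protease enamelysin (ENSG00000137674, GRCh38 chromosome 11, 102576832 to 102625332, minus strand), had 6 counts in NT, all in library 3, 5 in KD1, 459 in KD2 and 72 in KDR. These are 0, 0 and 0.229 CPM in NT, 0.106, 0 and 0.0521 in KD1, 5.70, 4.86 and 4.93 in KD2 and 0.614, 1.13 and 0.585 in KDR, with no overlap between KD2, KDR and the other groups. The scaled ratio of KD2 to NT was 77.1 with a counting interval of 35.2 to 211, and that of KDR to NT 11.5 (5.03 to 32.4). The fitted log2 value for KD2 over NT was 6.15, and it was 5.53 without NT library 1 and 10.30 without NT library 3. For KDR against NT the fitted value was 3.42, and 2.81 and 7.56 without these libraries. MMP20 shares 8.07% of its exon bases with MMP20-AS1 on the other strand, where reads were counted for neither gene, and strand was not used elsewhere. MMP20-AS1 held 5 counts (NT), 9 (KD1), 313 (KD2) and 114 (KDR).

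Promoters of these genes are shown because MMP7 and MMP20 were both higher in KD2 while MMP10, farther along the cluster, was not called. Each stretch covers the bases before the RefSeq start, free of exons (GRCh38.p14, RefSeq, minus strand, at chr11:102530751-102530997 for MMP7, chr11:102625333-102625582 for MMP20 and chr11:102780629-102780878 for MMP10). Capitals mark an AP-1 site (TGANTCA, either strand), the motif of FOS and JUN factors, and a TATA box (TATAAA, either strand), and no GC box was found.
MMP7: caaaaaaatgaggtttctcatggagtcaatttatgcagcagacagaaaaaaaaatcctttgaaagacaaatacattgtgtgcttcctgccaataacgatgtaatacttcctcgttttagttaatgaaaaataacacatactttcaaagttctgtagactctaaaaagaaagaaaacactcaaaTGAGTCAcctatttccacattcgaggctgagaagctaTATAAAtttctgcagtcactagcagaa
MMP20: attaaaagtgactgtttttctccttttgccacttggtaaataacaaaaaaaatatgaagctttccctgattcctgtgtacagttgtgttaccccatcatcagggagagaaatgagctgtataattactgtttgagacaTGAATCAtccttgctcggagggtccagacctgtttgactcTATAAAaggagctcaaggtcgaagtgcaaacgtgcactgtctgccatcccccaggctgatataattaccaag
MMP10: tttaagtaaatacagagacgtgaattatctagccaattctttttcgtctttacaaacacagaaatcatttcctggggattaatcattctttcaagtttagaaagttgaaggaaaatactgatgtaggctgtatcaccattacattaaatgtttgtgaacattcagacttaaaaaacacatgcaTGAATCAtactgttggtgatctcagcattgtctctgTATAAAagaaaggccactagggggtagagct
Counted from the RefSeq start, the AP-1 site began 67 bases before it in MMP7, 112 in MMP20 and 67 in MMP10. The TATA box began 30, 72 and 31 bases before it. The printed MMP7 stretch holds 247 of the 250 bases before that start. Those nearest to the start lie in a counted exon and are left out. An AP-1 site was present in 6.57% of the 35116 windows of 250 bases, a TATA box in 10.7% and both in 1.07%. Both were present in 3 of the 45 windows of members, those printed here. MMP10, or stromelysin 2, averaged 4.38 ± 0.288 CPM (NT), 3.96 ± 0.971 (KD1), 4.28 ± 0.425 (KD2) and 4.37 ± 1.27 (KDR), and its log2 difference between KD2 and NT was -0.04 (95% interval -0.49 to 0.41). A match is a description of the letters, and binding was not measured.

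Genes around MMP7 were looked at after these values were seen. Of 49 genes between 500 kb before MMP7 and 500 kb beyond MMP13, at the other end of the cluster, 17 were tested. In KD2 against NT 10 of them were higher and 0 lower, beside 17.8% and 18.2% of all genes, in KDR against KD2 0 were higher and 11 lower, beside 15.3% and 17.1%, and in KDR against NT 5 were higher and 1 lower, beside 13% and 14.5%. Genes near 0 in NT and KD1, such as MMP20 and MMP27, could pass the filter on low counts only through the groups where they were high. The counts also include MMP7 and MMP20, whose values led to the look, and MMP20-AS1, which shares exon bases with MMP20. For both reasons these counts are a description. On the side away from MMP20, TMEM123 averaged 327 CPM (NT), 368 (KD1), 801 (KD2) and 403 (KDR), and rose by 1.29 in KD2 (edgeR BH-adjusted p = 1.3e-11). MMP27, beyond MMP20, went from 2 counts in NT to 51 in KD2 and 17 in KDR, and was called higher in KD2 against NT (4.51, edgeR BH-adjusted p = 0.0038). MMP8, MMP1, MMP3, MMP12 and MMP13 held 0 to 31 counts in any group. YAP1, a transcriptional cofactor of the Hippo pathway in the same window, averaged 114 CPM (NT), 118 (KD1), 166 (KD2) and 113 (KDR), a rise of 0.55 in KD2 (edgeR BH-adjusted p = 1.8e-07). Genes higher in KD2 lay on both sides of MMP10, which itself was not called: beyond it, the dynein gene DYNC2H1 rose by 0.56 (edgeR BH-adjusted p = 2.4e-05).

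**Figure D4:**
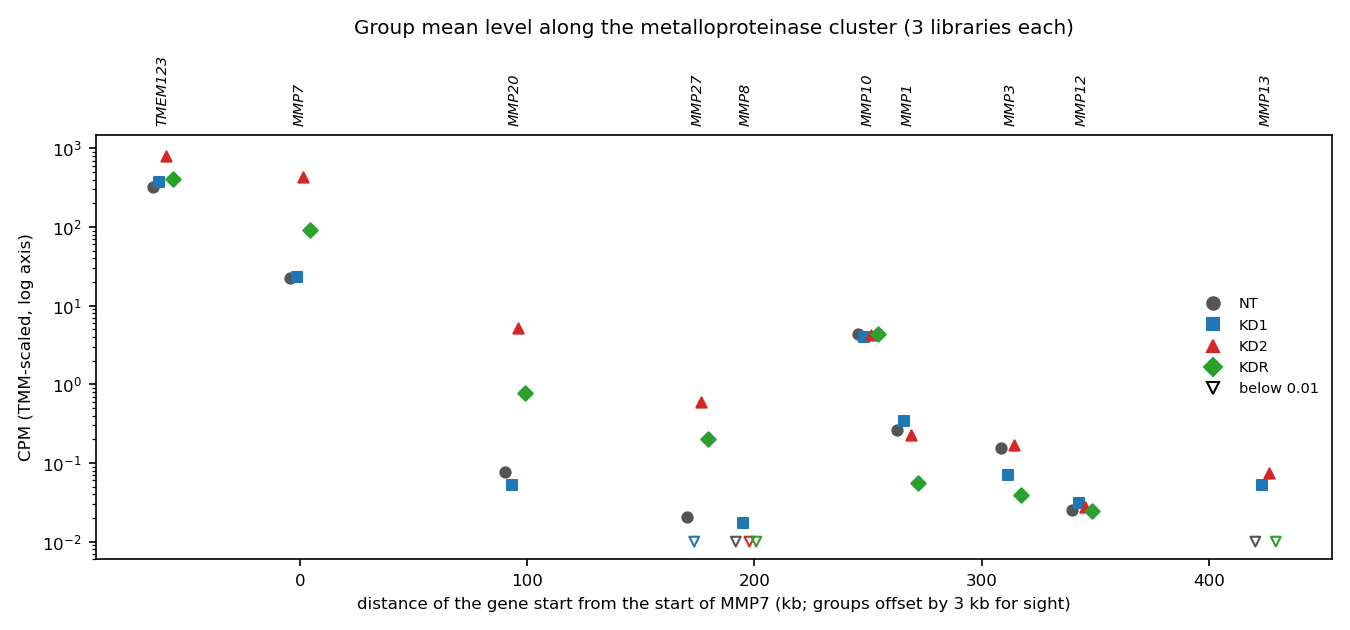
Group mean CPM on a log axis (3 libraries each) of named genes in the metalloproteinase cluster against the distance of each gene's start from that of MMP7 in kb, with groups offset by 3 kb for sight and open triangles for means below 0.01. KD2 stood above NT for TMEM123, MMP7, MMP20 and MMP27, the 4 groups coincided at MMP10 between 3.96 and 4.38 CPM, and the genes plotted beyond it stayed under 1 CPM.

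Membrane-bound MMP15 had the highest level per length of the MMPs in NT and differed by small steps. It measured 159, 181 and 155 CPM in NT, 162, 162 and 153 in KD1, 184, 189 and 189.7 in KD2 and 132, 136 and 135 in KDR, so that KD2 lay just above NT and KDR below all others. Its log2 fold change was 0.18 (95% interval 0.06 to 0.31, edgeR BH-adjusted p = 0.02) in KD2 and -0.30 (95% interval -0.42 to -0.17, edgeR BH-adjusted p = 0.00059) in KDR, both against NT. The KD2 call ended without NT library 1 (0.16), NT library 3 (0.14), KD2 library 2 (0.18) or KD2 library 3 (0.18) and in 1 other refit, with BH-adjusted p, by edgeR and the other tools, from 1.9e-05 to 0.095 over 19 alternatives. MMP24, a membrane-bound MMP of neurons, averaged 1.22 to 1.96 CPM and was called in no comparison.

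ADAMTS1, a secreted protease that cuts proteoglycans such as versican, was lower than NT in KD2 and higher than NT in KDR. ADAMTS1 (ENSG00000154734, GRCh38 chromosome 21, 26835755 to 26845409, minus strand) measured 39.7, 34.2 and 34.9 CPM in NT, 34.6, 34.6 and 33.1 in KD1, 11.6, 12.9 and 10.3 in KD2 and 143, 139.7 and 139 in KDR. KD2 lay below and KDR above every NT and KD1 library. It fell in KD2 by 1.64 on the log2 scale (edgeR BH-adjusted p = 6.2e-13), rose 12.1-fold from KD2 to KDR and ended 3.88-fold above NT, at 1.95 (95% interval 1.79 to 2.12, edgeR BH-adjusted p = 2e-14). ADAMTS15, which cuts the proteoglycan aggrecan, measured 1.99, 3.01 and 1.30 CPM in NT, 1.56, 1.62 and 1.95 in KD1, 2.07, 1.46 and 2.34 in KD2 and 0.731, 0.677 and 1.57 in KDR. KDR library 3 overlapped NT and KD2. ADAMTS15 was called lower in KDR, at -0.99 (95% interval -1.74 to -0.24, edgeR BH-adjusted p = 0.04) against KD2 and -1.10 (95% interval -1.85 to -0.35, edgeR BH-adjusted p = 0.026) against NT. The first call ended without KD2 library 1 (-0.94), KD2 library 3 (-0.85), KDR library 1 (-0.81) or KDR library 2 (-0.78), with BH-adjusted p, by edgeR and the other tools, from 0.0068 to 0.16 over 19 alternatives. The second ended without NT library 2 (-0.75), KDR library 1 (-0.91) or KDR library 2 (-0.89) and in 2 other refits (BH-adjusted p, by edgeR and the other tools, from 0.0051 to 0.13).

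Of the inhibitors, TIMP1 and TIMP2 were expressed and TIMP3 was not. TIMP1 measured 9.94, 9.49 and 9.15 CPM in NT, 10.3, 9.44 and 10.6 in KD1, 9.42, 10.3 and 11.1 in KD2 and 8.66, 8.12 and 8.78 in KDR, and was called in no comparison. Its 95% interval in KD2 over NT was -0.14 to 0.35 on the log2 scale, beside 4.09 to 4.38 for MMP7. TIMP2, which also takes part in the activation of MMP2, measured 7.48, 7.77 and 7.54 CPM in NT, 7.89, 6.78 and 6.01 in KD1, 7.83, 10.2 and 11.8 in KD2 and 4.44, 4.26 and 5.08 in KDR. The KDR libraries lay below all others, with -1.11 (95% interval -1.45 to -0.77, edgeR BH-adjusted p = 1.1e-05) against KD2 and -0.73 (95% interval -1.07 to -0.39, edgeR BH-adjusted p = 0.0017) against NT. Its level in KD2 was not called against NT (0.38, edgeR BH-adjusted p = 0.063), and 9.52% of its exon bases overlap other genes. SPINT1, the membrane inhibitor of hepsin and matriptase in epithelia, measured 311, 370.3 and 311 CPM in NT, 311, 303 and 309.8 in KD1, 274, 273 and 281 in KD2 and 252, 269 and 256 in KDR. NT and KD1 overlapped, and KD2 and KDR lay below both of them. Its log2 fold change against NT was -0.26 (95% interval -0.39 to -0.14, edgeR BH-adjusted p = 0.0013) in KD2 and -0.35 (95% interval -0.48 to -0.23, edgeR BH-adjusted p = 0.00011) in KDR.

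The 3 collagen-modifying enzymes were all called in KD2 against NT, 1 higher and 2 lower, beside 17.8% and 18.2% of all genes. P4HA2, a subunit of the prolyl hydroxylase that stabilises the collagen helix, measured 67.0, 84.7 and 75.8 CPM in NT, 73.2, 69.7 and 65.8 in KD1, 44.7, 42.4 and 43.8 in KD2 and 36.6, 38.6 and 36.2 in KDR. Levels in KD2 lay below NT and KD1, and those in KDR lower still. The log2 fold change was -0.80 (95% interval -0.96 to -0.63, edgeR BH-adjusted p = 3.6e-08) in KD2 and -1.03 (95% interval -1.20 to -0.86, edgeR BH-adjusted p = 1.3e-09) in KDR against NT, and -0.23 between KDR and KD2. PLOD2, the lysyl hydroxylase of collagen telopeptides, measured 2.45, 1.78 and 2.17 CPM in NT, 3.01, 1.87 and 2.65 in KD1, 4.85, 3.89 and 5.59 in KD2 and 3.42, 3.13 and 3.07 in KDR. KD2 lay above every other library, at 1.16 (95% interval 0.69 to 1.63, edgeR BH-adjusted p = 0.00028) against NT, and KDR lay between KD2 and NT, with -0.57 against KD2. LOXL2, a lysyl oxidase that crosslinks collagen, stood at 7.93 ± 0.634 CPM (NT), 5.89 ± 0.409 (KD1), 4.49 ± 0.544 (KD2) and 6.04 ± 0.187 (KDR), with -0.83 (95% interval -1.14 to -0.51, edgeR BH-adjusted p = 0.00014) in KD2 against NT and 0.43 in KDR against KD2. The call of P4HA2 between KDR and KD2 (edgeR BH-adjusted p = 0.031, 0.0026 to 0.097 over 19 alternatives) ended without KD2 library 1 or 3 or KDR library 1 or 3. That of PLOD2 (edgeR BH-adjusted p = 0.049, 0.018 to 0.19 over 19 alternatives) ended without KD1 library 3, KD2 library 1 or 3 or any 1 of the KDR libraries and in 3 other refits, with values from -0.62 to -0.45. That of LOXL2 (edgeR BH-adjusted p = 0.033, 0.024 to 0.16 over 19 alternatives) ended without KD2 library 1 (0.33), without any 1 of the KDR libraries and in 1 other refit.

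The other knockdown label, KD1, gave no call among the 43 genes, beside a background of 0% of all genes. The smallest BH-adjusted p of edgeR among them was 0.79, and 4 of the 43 had an unadjusted p under 0.05, against 1185 of 19373 genes. DESeq2 and limma-voom with library weights called none of them either. Without a filter on low counts, 23 of 37505 genes were called and 0 of the members. Over the 43 genes the log2 values ran from -1.20 to 1.14, and 32 had a 95% interval within a 2-fold change in either direction. Among 26 members that reached a group mean of 5 CPM, the log2 fold change of KD1 against NT ran from -0.43 (LOXL2) to 0.34 (SPOCK2), and 25 had such an interval. The libraries of KD1 and NT did not overlap for 2 genes, TNC and LOXL2, against 9.4% of all genes. Compared with each other, the libraries labelled KD2 were higher than KD1 in 18 of the 43 genes and lower in 9, where 35.5% of all genes were called (17.9% higher and 17.5% lower). Changes of at least 1 were called for 11 of the 43, against 8.94%, and 29 did not overlap, against 49.7%. The differences farthest from 0 were those of MMP20 (6.45), SPON2 (-4.78) and MMP7 (4.22).

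Genes that work with these 50 were counted from 5 lists of 202 further genes, of which up to 3 per list are named by their adjusted p in KD2 against NT. The median log2 fold change of KD2 against NT was 0.25 for the receptors, 0.12 for collagen processing, -0.18 for the other proteases, 0.54 for the other inhibitors and -0.12 for the other structural genes, beside -0.01 over all genes. The counts called in all 5 lists are a description, to be read beside the shares of all genes called higher and lower. These shares were 17.8% and 18.2% in KD2 against NT, 15.3% and 17.1% in KDR against KD2, and 13% and 14.5% in KDR against NT. Of the 30 matrix receptors, 24 were tested. In KD2 against NT 10 were higher and 3 lower, in KDR against KD2 1 was higher and 15 lower, and in KDR against NT 1 was higher and 12 lower. The syndecan SDC4, a heparan sulfate receptor that binds fibronectin beside integrins, went from 103 ± 3.04 CPM in NT to 197 ± 2.56 in KD2 and 89.4 ± 2.84 in KDR (0.93 and then -1.14). LRP1, which takes up proteases and their inhibitors, followed the same course, from 52.7 ± 9.67 to 97.3 ± 1.86 and 43.6 ± 0.971 CPM. ITGA5, the alpha subunit of the main fibronectin receptor, was lower in KD2 than in NT, at 22.5 ± 1.37 against 36.8 ± 5.95 CPM, a change of -0.71 (95% interval -0.92 to -0.51, edgeR BH-adjusted p = 4e-06). FN1 and this receptor subunit differed in sign.

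Of 27 genes of collagen folding, processing and crosslinking, 26 were tested. In KD2 against NT 10 were higher and 4 lower, in KDR against KD2 2 and 8, and in KDR against NT 2 and 3. The procollagen proteinase TLL1 rose from 3.58 ± 0.320 CPM (NT) to 43.8 ± 2.11 (KD2), at 3.61 (95% interval 3.32 to 3.90, edgeR BH-adjusted p = 2.1e-15), and stood at 7.82 ± 1.59 in KDR. Its relative TLL2 moved in the other direction, from 8.18 ± 0.430 to 3.16 ± 0.358 and back to 7.82 ± 0.632 CPM, with -1.38 (95% interval -1.69 to -1.06, edgeR BH-adjusted p = 1.6e-07) in KD2. COLGALT1, which glycosylates collagen, rose by 0.51 in KD2 (edgeR BH-adjusted p = 1.2e-06).

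Of 46 other matrix proteases, 25 were tested, with 6 higher and 8 lower in KD2 against NT, 7 and 4 in KDR against KD2, and 7 and 5 in KDR against NT. The lysosomal cathepsins CTSD and CTSL fell by 0.92 and 0.78 on the log2 scale in KD2, while hepsin (HPN), the membrane serine protease that SPINT1 inhibits, rose from 18.9 ± 2.13 to 35.7 ± 2.99 CPM and stood at 31.2 ± 1.27 in KDR. Of 16 other inhibitors and receptors, 9 were tested, with 4 higher and 1 lower in KD2, 1 and 4 in KDR against KD2, and 2 and 3 in KDR against NT. In KD2 against NT the serpins SERPINI1 and SERPINB5 rose by 0.61 and 1.30, and SPINT2, the close relative of SPINT1, changed by -0.37. Of 83 other structural matrix genes, 41 were tested, with 6 higher and 10 lower in KD2, 5 and 8 in KDR against KD2, and 6 and 10 in KDR against NT. FRAS1, a protein of the epithelial basement membrane, fell from 36.7 ± 0.119 CPM (NT) to 3.24 ± 0.765 (KD2) and stood at 18.4 ± 0.921 in KDR, with -3.52 (95% interval -3.78 to -3.26, edgeR BH-adjusted p = 4e-16) in KD2. SMOC1, another basement membrane protein, changed by -0.67 and the matricellular CCN1 by 0.50 in KD2 (edgeR BH-adjusted p = 1.1e-09 and 2.2e-08).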

How the data were processed

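The authors deposited 1 table of raw counts per gene for each of the 12 libraries. Per the file headers, featureCounts 1.6.4 produced them from exons summarised by gene (Ensembl release 111, GRCh38) with no strand or pair option, so both ends of a fragment entered separately, and reads overlapping several genes or mapping to several places were not. The submitters' processing notes also name FastQC, cutadapt and HISAT2, with versions not given in the sources used here. Sequencing was paired, 150 bases per end, after poly-A selection, per the labels.

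From these counts, CPM were computed with TMM factors, and edgeR 4.0.16 in R 4.3.3 fitted 1 quasi-likelihood model with a term for the group over the 12 libraries, for the 19373 genes kept by filterByExpr. P-values were adjusted over all genes tested (Benjamini-Hochberg). Levels per kb divide CPM by exon length. Ratios on low counts carry exact 95% counting intervals, which treat counts as independent and, since both ends of a fragment could be counted, are too narrow even for counting error.

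The members, role classes and lists were chosen with earlier results of these data known. Values in every library are given for members with a log2 change of 1 or more in size called in KD2 against NT, KDR against KD2 or KDR against NT and for the member of each class with the highest level per length in NT. Of the 5 pathway lists, up to 3 genes each with a mean of at least 5 CPM are named by adjusted p in KD2 against NT. Alternatives were edgeR with the size factors of DESeq2, DESeq2 1.42.0 itself, no low-count filter, at least 1 CPM in 3 libraries, a fit of the 2 groups compared, limma-voom (limma 3.58.1) with library weights, the replicate number as a block, and leaving out each library. The labels do not say that the replicate numbers pair libraries. Of 18 same-numbered pairs, 0 correlated above 0.1 in their deviations from the group means (range -0.02 to 0.04). Such values cannot show whether same-numbered libraries were prepared together.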

Additional observations from a re-analysis of the deposited data

Results flagged for a closer look

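KD1 and KD2 are both labelled as knockdowns of DHODH, yet their effects against NT differed by the test of KD2 against KD1 (edgeR, BH-adjusted p under 0.05) for 27 of the 43 genes tested, where 35.5% of all genes were called. For each gene the difference of the effects on the log2 scale was the same as the fold change of KD2 against KD1. Higher in KD2 were MMP20 (6.45), MMP7 (4.22), COL27A1 (1.77), HSPG2 (1.49), COL2A1 (1.22), FN1 (1.13), TNC (0.94), PLOD2 (0.92), COL5A2 (0.80), COL9A2 (0.69), LAMA3 (0.65), TIMP2 (0.53), LAMB2 (0.50), LAMC1 (0.41), LAMA5 (0.40), AGRN (0.39), MMP15 (0.24) and LAMB1 (0.24). Lower in KD2 were SPON2 (-4.78), COL4A6 (-1.63), ADAMTS1 (-1.55), COL1A1 (-1.31), SPOCK2 (-1.14), P4HA2 (-0.67), LOXL2 (-0.40), COL4A5 (-0.31) and SPINT1 (-0.16). The value for MMP20 rests on 5 counts in KD1 and was 7.17 without KD1 library 1. Calls of small differences ended without 1 library: that of LAMB1 (edgeR BH-adjusted p = 0.043) without KD1 library 2 or 3, KD2 library 1 or 3 or any 1 of the KDR libraries. LAMB1 lost its call in 9 of 19 alternatives, with values from 0.18 to 0.31. The call of TIMP2 ended without KD1 library 3 (0.43) or KD2 library 3 (0.39). That of SPINT1 (edgeR BH-adjusted p = 0.043) ended without any 1 of the KD1, KD2 or KDR libraries (-0.17 to -0.15). The call of LOXL2 (edgeR BH-adjusted p = 0.049) ended in 16 of 19 alternatives. Among these were all fits without 1 library other than NT library 2 (-0.45 to -0.29). DHODH RNA itself was at 10.3 ± 0.674 CPM in KD1 and 13.1 ± 1.73 in KD2, beside 10.5 ± 2.51 in NT. The cause of the difference between both labels was not tested.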

How the results depend on the processing

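Of the 100 calls of a gene in a comparison, 80 held in every alternative that gave a value and 20 were lost in at least 1. Over 1898 refits, 101 lost a call and 0 changed sign. Counts of genes called stayed within 1.5 times the reported ones: over left-out libraries, KD1 against NT stayed at 0, KD2 against NT gave 15 to 17 higher and 8 to 12 lower, KDR against KD2 gave 7 to 9 and 12 to 21, KDR against NT 9 to 15 and 9 to 11, and KD2 against KD1 16 to 19 and 7 to 9. Over the other 7 alternatives these were 0, 15 to 16 and 8 to 10, 8 to 9 and 15 to 21, 11 to 14 and 9 to 11, and 17 to 18 and 8 to 9. Calls over all genes moved too. Over left-out libraries, 20008 to 20387 genes were tested. Called were 5958 to 7582 in KD2 against NT, 5093 to 7876 in KDR against KD2 and 4177 to 6180 in KDR against NT. In KD2 against KD1 they were 5856 to 8219. Over the other 7 alternatives, with 15521 to 37505 tested, KDR against KD2 gave 6114 to 8189 and KDR against NT 4170 to 5791. What libraries with the same replicate number share is not stated in the labels. With the replicate block the counts were 0 for KD1 against NT, 16 and 10 for KD2 against NT, 9 and 16 for KDR against KD2, 13 and 10 for KDR against NT, and 17 and 8 for KD2 against KD1, and 3 calls were lost: COL4A2 in KD2 against NT (-0.86), and LAMB1 (0.24) and LOXL2 (-0.40) in KD2 against KD1. Genes under about 1 CPM rest on few counts, and changes in those at 0 in a group are limited by depth.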
